A study of Danio rerio with 24 samples.

Results

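The genes described are 8 interferon-stimulated genes of the zebrafish: *mxa*, *mxb*, *mxc*, *isg15*, *rsad2*, *ifitm1*, *stat1a* and *stat1b*. They were taken by name from a fixed list, and their probes were found through the target accessions of the array. All 8 were on the array, with 12 probes among the 43603 probes and 12858 named genes measured. *mxc* had 3 probes, *mxa* and *stat1b* had 2 each and the other genes had 1. The groups were kidney, liver and muscle of adult wild-type zebrafish of 9 months on the diet labelled Normal, collected 3 hours after intraperitoneal injection of 10 µg of LPS, the endotoxin of Gram-negative bacteria, or of PBS, the buffer control. Each of the 6 groups had 4 arrays, and the RNA of each array came from a pool of 3 fish, so that variation between single fish was not measured. The sex of the fish was not given in the sources used here.

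Interferons are cytokines that are released when infection is sensed and that bind receptors on neighbouring cells. The receptors signal through JAK kinases to STAT transcription factors, which together with the IRF family switch on the interferon-stimulated genes. *stat1a* and *stat1b* encode transcription factors of the STAT family. The products of the other genes described act against viruses at different steps. Mx proteins are dynamin-like GTPases that trap viral components, Isg15 is a ubiquitin-like protein that is attached to other proteins, Rsad2 (viperin) is a radical SAM enzyme that makes a terminator of viral RNA synthesis, and proteins of the IFITM family hinder the entry of viruses through membranes. Mammalian cells that sense LPS through Toll-like receptor 4 also produce type I interferon. The kidney of fish contains the blood-forming marrow and is rich in leukocytes.

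Values are log2 signals relative to the 75th percentile of the array, so that a step of 1 is a doubling and levels of different probes are not comparable with each other. On these arrays 39.4% to 84.8% of spots were well above background, with ranges of 50.1% to 61.7% after LPS and 54.6% to 84.8% after PBS in kidney, 39.4% to 55.7% and 42.5% to 52.4% in liver, and 63.8% to 71.1% and 57.3% to 63.5% in muscle. Of 41 cell type markers listed, 32 were measured. Tubule markers were highest in the kidney arrays (1.59 to 4.40, against at most 0.62 in the other tissues) and muscle markers in the muscle arrays (3.72 to 6.59, against at most 3.71). Markers of hepatocytes were not restricted to the liver, at 4.45 to 9.02 in the liver but up to 8.22 in the kidney, and markers of the exocrine pancreas reached 5.65 to 8.73 in the liver arrays. Markers of oocytes (3 of 4 listed genes measured) varied between pools in all tissues and are given beside the results. In bulk tissue, fewer cells of a type and less RNA per cell cannot be told apart.

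Over the 24 arrays, 1 of the 8 genes was differentially expressed after LPS, *mxc*, and it was higher. A gene was counted when any of its probes reached a limma adjusted p under 0.05, and 0.443% of all genes tested were counted in this comparison. Whether the 3 tissues of a replicate number came from the same fish is not stated. The arrays of a treatment, taken as independent in this fit, may therefore not be so. The probe A_15_P132451 of *mxc* reached a log2 fold change of 3.28 (standard error, SE, 0.53, adjusted p = 0.00195) and the probe A_15_P630791 one of 2.60 (SE 0.43, adjusted p = 0.00275), which correspond to 9.72-fold and 6.04-fold. The first of these was well above background on only 4 of the 12 PBS arrays, and with normexp background correction its log2 fold change was 1.78 (adjusted p = 0.0381), beside 2.36 (adjusted p = 0.00168) for A_15_P630791. The third probe, A_15_P656826, had a log2 fold change of 0.31 (SE 0.35, adjusted p = 0.9999). For *ifitm1* it was 1.56 (SE 0.40, adjusted p = 0.113), for *isg15* 1.46 (SE 0.50, adjusted p = 0.507) and for *stat1a* 1.31 (SE 0.40, adjusted p = 0.339), none of which passed the threshold. With a term for the tissue, *ifitm1* was counted too, as it was without PBS muscle replicate 2. With the slide as a block no gene of the 8 was counted, the adjusted p of *mxc* then being 0.184 and 0.623 for these 2 probes, against a range over all alternatives of 5.46e-05 to 0.184 and 0.000164 to 0.623.

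**Figure D1:**
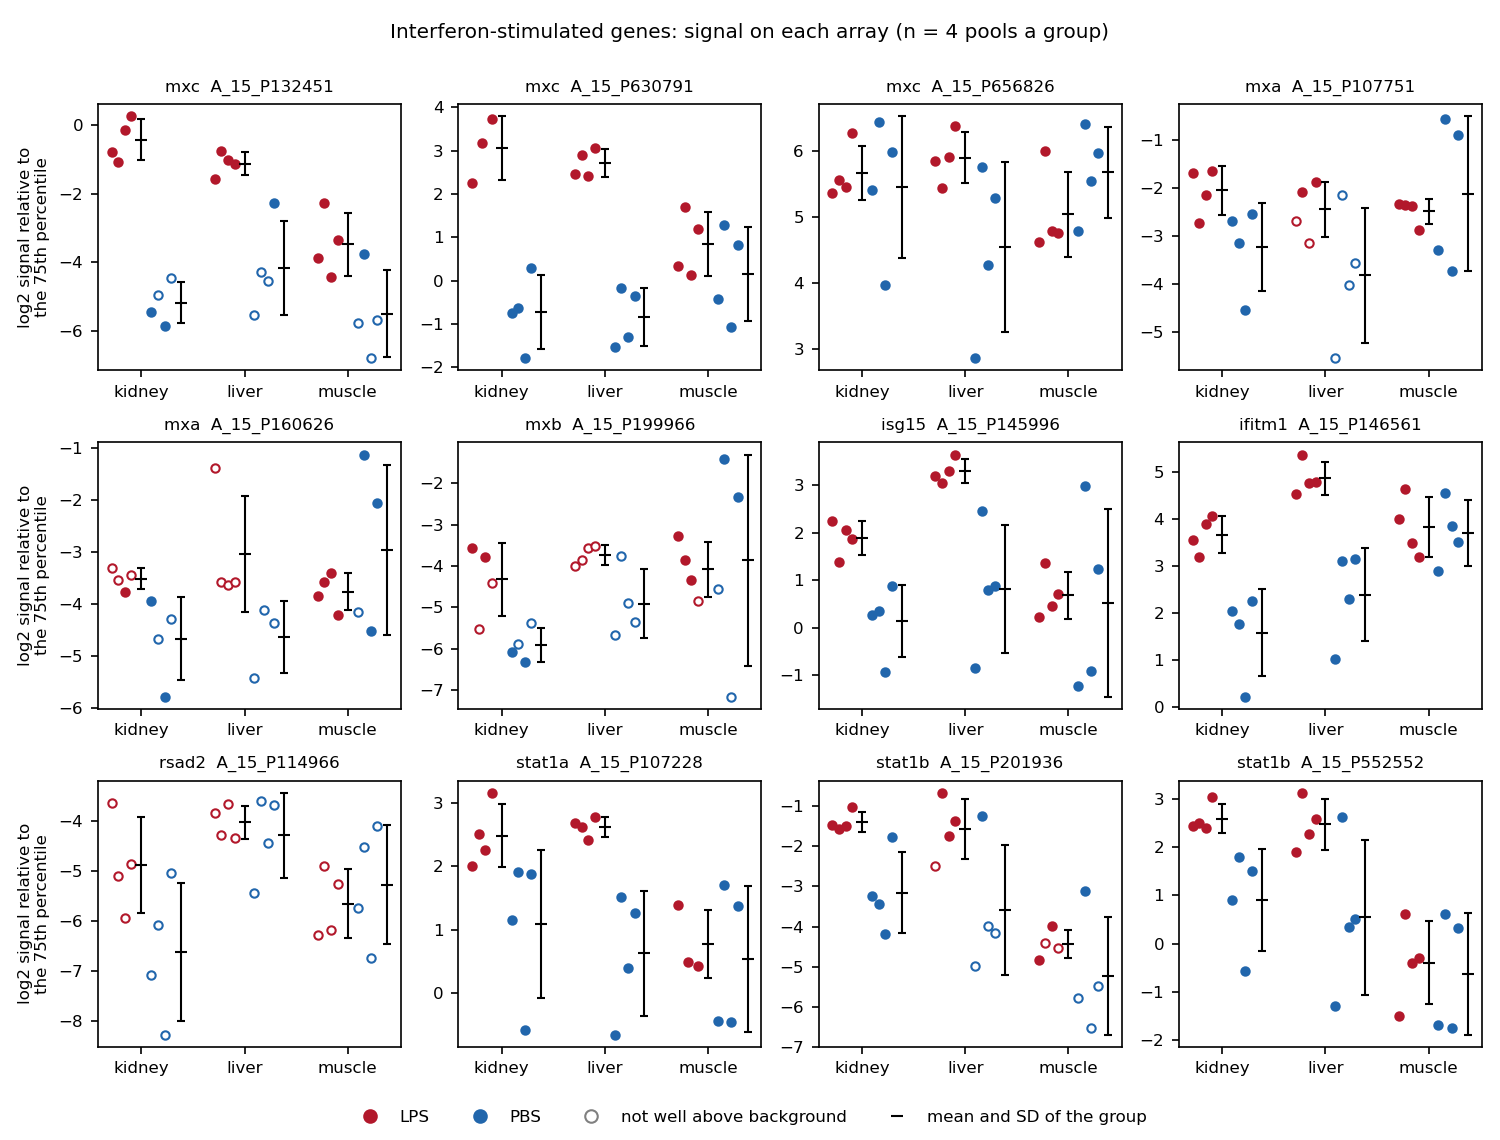
Log2 signal relative to the 75th percentile of the array (vertical axis) for the 12 probes of the 8 genes, in kidney, liver and muscle after LPS (red, left) and PBS (blue, right). Each point is an array of a pool of 3 fish, open points were not well above background, and bars are the mean and SD of a group. Every LPS array lies above every PBS array for 8 of the 12 probes in the kidney, as for *mxc* A_15_P132451 (-0.42 ± 0.60 against -5.18 ± 0.61). This holds for 6 of the 12 in the liver, while the muscle groups overlap.

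The 3 probes of *mxc* gave different results. In the kidney, A_15_P132451 read -0.77, -1.06, -0.12 and 0.27 in the LPS arrays, against -5.45, -4.95, -5.86 and -4.45 in the PBS arrays. Every LPS array was more than 3 units above every PBS array, and 2 of the 4 PBS arrays were not well above background. The log2 fold change was 4.76 (SE 0.44, adjusted p = 0.0177), or 27.0-fold with a 95% confidence interval of 13.5 to 54.2. With normexp background correction it was 3.22 (adjusted p = 0.255) and no longer past the threshold. In the same tissue A_15_P630791 read 2.26, 3.17 and 3.73 in the LPS arrays (the spot of replicate 1 was an outlier and was left out), against -0.75, -0.64, -1.79 and 0.30 in the PBS arrays. The groups did not overlap, and the log2 fold change of 3.77 (SE 0.58) had an adjusted p of 0.139.

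In the liver it was A_15_P630791 that passed the threshold. It read 2.46, 2.90, 2.42 and 3.07 in the LPS livers, against -1.53, -0.18, -1.29 and -0.36 in the PBS livers. The log2 fold change was 3.55 (SE 0.42, adjusted p = 0.00823), or 11.7-fold (95% confidence interval 6.13 to 22.5). A_15_P132451 read -1.58, -0.75, -0.997 and -1.13 in the LPS livers, against -5.55, -4.30, -4.56 and -2.28 in the PBS livers, of which PBS replicate 4 alone was well above background. Its groups were also apart, with a log2 fold change of 3.06 (SE 0.62, adjusted p = 0.0710), or 1.75 with normexp background correction.

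The brightest probe of *mxc*, A_15_P656826, did not follow the other probes. In the kidney it read 5.36, 5.56, 5.46 and 6.27 in the LPS arrays, against 5.41, 6.43, 3.97 and 5.99 in the PBS arrays, and the groups overlapped. It exceeded the upper limit of the filter on all arrays of the kidney and the muscle and so was not tested there. With no filter its log2 fold change was 0.21 in the kidney (SE 0.55, adjusted p = 0.942) and -0.64 in the muscle (SE 0.49, adjusted p = 0.811). In the liver it was 1.35 (SE 0.60, adjusted p = 0.320). The filter let this probe into the liver test and the test over all tissues through PBS liver replicate 1 alone, where it read 2.86.

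The difference between 2 probes of *mxc* on the same array does not depend on the scaling of the array, and it was compared between LPS and PBS after the disagreement had been seen, with the outlier spot of LPS kidney replicate 1 kept. Relative to A_15_P656826, the signal of A_15_P132451 was -6.08 ± 0.43 in LPS kidneys and -10.63 ± 0.66 in PBS kidneys (SD, n = 4 each), a difference of 4.55. The liver showed a corresponding difference of 1.71 and the muscle one of 2.67. Relative to the same probe, A_15_P630791 was higher after LPS by 3.38 (kidney), 2.21 (liver) and 1.33 (muscle). In each of these 6 comparisons the LPS arrays lay above the PBS arrays without overlap, which is a description of these arrays, since the comparison was chosen on them. The gap was small for A_15_P132451 in the liver (lowest LPS -7.51, highest PBS -7.57). The 2 dimmer probes were compared with each other as well. A_15_P132451 minus A_15_P630791 changed after LPS by 1.17 in the kidney, 1.34 in the muscle and -0.50 in the liver, where the groups overlapped. A_15_P132451 was well above background on 2 of 4 PBS kidney arrays, 1 of 4 PBS liver arrays and 1 of 4 PBS muscle arrays, so that its differences there include readings at background. Which transcripts each probe binds, also among the closely related *mx* genes, was not tested.

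**Figure D2:**
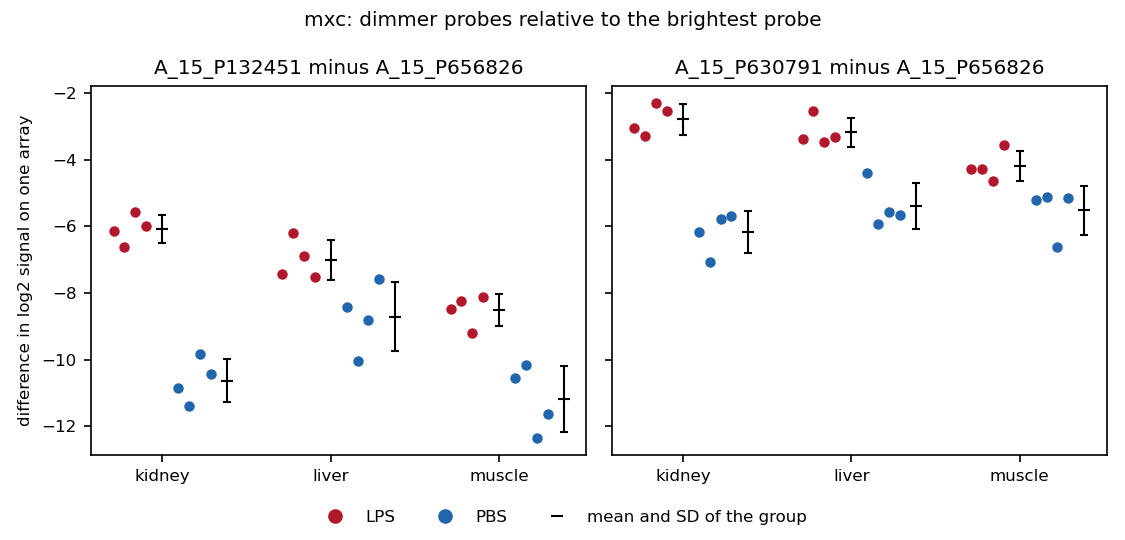
Difference in log2 signal between a dimmer probe of *mxc* and its brightest probe A_15_P656826 on the same array (vertical axis), by tissue, after LPS (red, left) and PBS (blue, right). Points are arrays, and bars are the mean and SD of 4; in all 3 tissues the LPS arrays lie above the PBS arrays for both probes.

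In the kidney, *mxc* was the only gene of the 8 past the threshold, at which 0.0891% of all genes tested were counted in this tissue. All 12 probes had a higher mean after LPS, as 53.4% of all 43603 probes did, with a median difference of 1.70 beside 0.06 over all probes. These 12 include *rsad2*, at background on every array, with a difference of 1.73. Limited to probes well above background on any kidney array, 11 of 11 were higher, by a median of 1.67. The same limit gave 46.7% and a median of -0.05 over all probes. Of the 10 probes tested that were well above background on any kidney array, 10 had an unadjusted p under 0.05 and were higher after LPS. The share was 3.72% over all probes tested, which were not limited to those above background. For 8 of the 12 probes every LPS array was above every PBS array, beside 2.03% of all probes tested. One of these 8, A_15_P160626 of *mxa*, was well above background on only 1 LPS and 2 PBS kidney arrays. The 12 probes stand for 8 genes measured on the same 8 arrays and are not independent of each other.

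The *ifitm1* signal was 3.54, 3.18, 3.89 and 4.05 in LPS kidneys, against 2.05, 1.77, 0.23 and 2.27 in PBS kidneys. All LPS kidneys exceeded all PBS kidneys, and the log2 fold change was 2.09 (SE 0.49, adjusted p = 0.388). For *isg15* the LPS kidneys read 2.24, 1.39, 2.05 and 1.86, against 0.28, 0.36, -0.92 and 0.87 in the PBS kidneys, with a log2 fold change of 1.74 (SE 0.43, adjusted p = 0.460). The groups did not overlap for either gene, and PBS replicate 3 had the lowest value of both.

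The same order was seen for the transcription factor genes *stat1a* and *stat1b*. In LPS kidneys *stat1a* was at 2.001, 2.51, 2.26 and 3.15, against 1.15, 1.91, -0.58 and 1.88 in PBS kidneys (log2 fold change 1.39, SE 0.59, adjusted p = 0.556). The probe A_15_P552552 of *stat1b* read 2.43, 2.49, 2.38 and 3.03 in LPS kidneys, against 0.89, 1.80, -0.56 and 1.51 in PBS kidneys (log2 fold change 1.67, SE 0.52, adjusted p = 0.556). Both genes were separated between the groups, and again PBS replicate 3 was far below the other PBS arrays. The second probe of *stat1b*, A_15_P201936, had a log2 fold change of 1.77, close to that of the first.

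PBS kidney replicate 3 also stood apart in other measures. The 75th percentile of its raw signal was 4814, against 1060 to 2358 in the other PBS kidneys, and it had the lowest levels of the PBS kidneys for the markers of neutrophils (2.72, against 4.70 to 5.32) and tubules (1.59, against 3.24 to 4.30). It was also the lowest for the markers of macrophages (-0.94, against 0.67 to 1.24), T and NK cells, B cells, red cells and exocrine pancreas. For hepatocytes and skeletal muscle it was not the lowest, and for oocytes it was the highest. The part of this array in the levels of the 8 genes was not tested beyond leaving it out. Without it the log2 fold change was 4.53 for *mxc* A_15_P132451 (adjusted p = 0.0230), 1.64 for *ifitm1*, 1.38 for *isg15*, 0.83 for *stat1a* and 1.18 for *stat1b* A_15_P552552, and the adjusted p of these other 4 was between 0.164 and 0.518.

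The remaining *mx* genes and *rsad2* were dimmer. For *mxa* the log2 fold changes in the kidney were 1.18 and 1.16 with its probes A_15_P107751 and A_15_P160626 (adjusted p = 0.556 each), and the groups were separated for the second probe only. That probe was well above background on 1 LPS and 2 PBS kidney arrays, so that its separation includes readings at background. The signal of *mxb* was -5.52 to -3.56 in LPS kidneys and -6.32 to -5.37 in PBS kidneys, with 2 arrays of each group well above background and overlapping groups. *rsad2* was not well above background on any of the 24 arrays, so that its readings and any fitted difference are those of background. The readings were -5.94 to -3.63 in LPS kidneys and -8.27 to -5.03 in PBS kidneys. Their fitted log2 fold change was 1.73 (SE 0.75, limma adjusted p = 0.556). Readings at background thus differed by about as much as the median of the measured probes in the kidney (1.67). The part of array-wide differences in this was not tested.

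The call of *mxc* in the kidney did not hold in 6 of the 8 fits that left out 1 array, those without LPS replicates 1, 2, 3 or 4 or without PBS replicates 1 or 2, nor with the replicate number as a block (adjusted p = 0.0665, against 0.000377 to 0.581 over all alternatives). PBS replicates 1 to 3 lay on a slide that was scanned on another day than the rest of the kidney arrays. Within the one slide that held both treatments, with 3 LPS arrays and 1 PBS array, and with outlier spots kept, the difference was 3.80 for *mxc* A_15_P132451, 2.28 for A_15_P630791, 1.27 for *ifitm1*, 1.03 for *isg15*, 0.93 for *stat1b* A_15_P552552 and 0.38 for *stat1a*. It was 0.26 for *stat1b* A_15_P201936, 0.35 and 0.75 for the probes of *mxa*, 1.08 for *mxb* and 0.14 for *rsad2*, at background. For *mxc* A_15_P656826 the difference was -0.52.

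In the liver, *mxc* was again the only gene of the 8 past the threshold, at which 0.666% of all genes tested were counted, 0.552% as higher and 0.114% as lower. All 12 probes had a higher mean in the LPS livers, as 56.2% of all probes did, by a median of 1.96 beside 0.03 over all probes. Limited to probes well above background on any liver array, 9 of 9 were higher, by a median of 2.02. The same limit gave 58.2% and a median of 0.19 over all probes. Of the 9 probes that were well above background on any liver array, 8 had an unadjusted p under 0.05 and were higher. The share was 6.79% over all probes tested, again not limited to those above background. For 6 of the 12 every LPS array was above every PBS array, beside 5.13% of all probes tested. One of these 6, A_15_P160626 of *mxa*, was not well above background on any liver array, and its groups overlapped when an outlier spot was kept.

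The signal of *isg15* was 3.19, 3.04, 3.30 and 3.64 in LPS livers, against -0.84, 2.45, 0.80 and 0.88 in PBS livers. The LPS arrays lay within a narrow band above the PBS arrays, among which replicate 2 was the highest, and the log2 fold change was 2.47 (SE 0.60, adjusted p = 0.105). For *ifitm1* the LPS livers read 4.53, 5.37, 4.76 and 4.79, against 1.02, 3.11, 2.30 and 3.14 in PBS livers (log2 fold change 2.47, SE 0.51, adjusted p = 0.0741). In fold, the difference was 5.54 for *isg15* and 5.53 for *ifitm1*, neither of which passed the threshold.

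*stat1a* was at 2.68, 2.62, 2.41 and 2.78 in LPS livers, against -0.65, 1.51, 0.39 and 1.27 in PBS livers. The groups did not overlap (log2 fold change 1.99, SE 0.49, adjusted p = 0.107). For *stat1b* A_15_P552552 the LPS livers read 1.89, 3.12, 2.26 and 2.58, against -1.29, 2.62, 0.35 and 0.51 in PBS livers, so that PBS replicate 2 lay within the LPS range (log2 fold change 1.92, SE 0.71, adjusted p = 0.229). A_15_P201936 had a log2 fold change of 2.02 (adjusted p = 0.226), or 0.96 with normexp background correction. This probe was well above background on 3 LPS livers and 1 PBS liver.

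The probe A_15_P107751 of *mxa* was well above background in 2 LPS livers and in no PBS liver. Its measured means were -2.45 after LPS and -3.82 after PBS (adjusted p = 0.356), and the groups overlapped. No lower bound is given for it, since its LPS mean includes readings at background. Where a fold is given as at least, it sets the mean of the higher group against a limit for the other group. This limit is the mean, over its arrays, of the higher of the probe's own signal and the lowest signal well above background. Neither *mxb* nor *rsad2* was well above background on any liver array. *mxb* read -4.01 to -3.52 in LPS livers and -5.66 to -3.75 in PBS livers, and *rsad2* -4.33 to -3.66 in LPS livers and -5.44 to -3.61 in PBS livers.

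The count in the liver rested on single arrays. Without LPS replicate 4 no gene of the 8 was counted, and without PBS replicate 2 there were 6 (*ifitm1*, *isg15*, *mxb*, *mxc*, *stat1a* and *stat1b*). Of these, *mxb* was not well above background on any liver array. The share of all genes counted in these fits is not given here, so that the counts cannot be set against it. None was counted with the slide or the replicate number as a block. The limma adjusted p of *mxc* A_15_P630791 was then 0.132 and 0.0653. Within the slide that held 1 LPS array and 3 PBS arrays, with outlier spots kept, the difference was 3.07 for *mxc* A_15_P630791, 2.13 for *mxc* A_15_P132451, 1.82 for *isg15*, 1.68 for *ifitm1* and 1.63 for *stat1a*. It was 0.74 for *mxc* A_15_P656826, and 0.64 and 0.73 for *stat1b* A_15_P201936 and A_15_P552552.

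**Figure D3:**
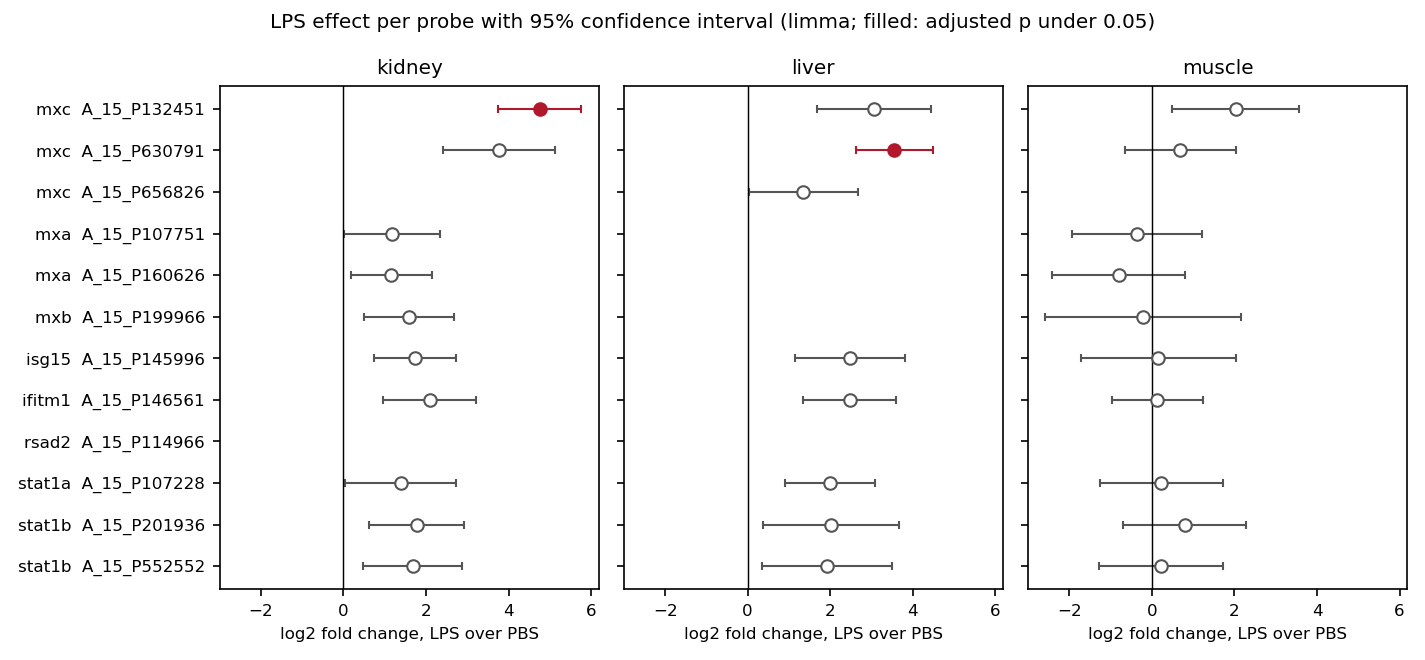
Log2 fold change of LPS over PBS (horizontal axis, points) with its 95% confidence interval (bars) for each probe of the 8 genes in each tissue, from limma on 4 LPS and 4 PBS arrays. Filled points passed the threshold, *mxc* A_15_P132451 in the kidney (4.76) and A_15_P630791 in the liver (3.55); probes not tested, or with a group not well above background on any array, have no point.

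In the muscle none of the 8 genes passed the threshold, and none of the 12395 genes tested did (0%, limma). Without adjustment, a p under 0.05 was reached by 1 of the 11 probes of the 8 genes that were tested, *mxc* A_15_P132451, and by 1235 of 40397 probes in all (3.06%). Of the 12 probes, 7 had a higher mean after LPS, beside 38.8% of all probes, with a median difference of 0.15 beside -0.19 over all probes. All 12 probes overlapped between the groups, beside 0.609% of all probes in which the LPS arrays were all above the PBS arrays.

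*mxc* A_15_P132451 read -3.87, -2.26, -4.42 and -3.35 in LPS muscle, against -5.77, -3.77, -6.81 and -5.68 in PBS muscle, where replicate 2 alone was well above background. Only PBS replicate 2 reached into the LPS range, and the log2 fold change was 2.03 (SE 0.69, adjusted p = 0.916), or 0.38 with normexp background correction. For *isg15* the LPS muscles read 0.22, 1.36, 0.46 and 0.70, against -1.22, 2.99, -0.90 and 1.23 in PBS muscle. Here PBS replicates 2 and 4 were among the highest and PBS replicates 1 and 3 the lowest of the 8 arrays, so the SD was 1.97 in PBS and 0.49 in LPS muscle, and the log2 fold change was 0.16 (SE 0.85, adjusted p = 0.977).

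The PBS muscles split in the same way for other genes. *stat1a* was at 1.38, 0.50 and 0.43 in LPS muscle replicates 2, 3 and 4, with an outlier spot left out in replicate 1, against -0.44, 1.70, -0.45 and 1.37 in PBS muscle. The probe A_15_P107751 of *mxa* read -2.33, -2.36, -2.38 and -2.87 in LPS muscle, against -3.29, -0.58, -3.73 and -0.92 in PBS muscle. *mxb* read -3.28, -3.85, -4.33 and -4.85 in LPS muscle, against -4.55, -1.41, -7.15 and -2.34 in PBS muscle. In each case PBS replicates 2 and 4 were above PBS replicates 1 and 3. *ifitm1* was bright in all muscle arrays, at 4.00, 4.64, 3.50 and 3.19 after LPS and 2.89, 4.56, 3.84 and 3.50 after PBS (log2 fold change 0.13, SE 0.50, adjusted p = 0.969, 95% confidence interval -0.97 to 1.24).

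Within the muscle slide that held 2 arrays of each treatment, with outlier spots kept, the LPS arrays were higher by 2.90 for *mxc* A_15_P132451, 1.05 for *mxc* A_15_P630791, 0.74 for *isg15*, 0.48 for *stat1a* and 0.40 for *ifitm1*. Within the slide with 1 array of each, the LPS array was lower in all 5, with a difference of -2.77 for *isg15*. For *stat1a* this rests on the outlier spot of LPS muscle replicate 1. The PBS array of that slide was replicate 2.

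Among the PBS arrays, oocyte markers were lower where the mean of the 8 genes was higher. Their mean log2 signal in PBS replicates 2 and 4 was 0.11 and 0.09 in kidney, 3.09 and 5.21 in liver and 3.04 and 4.77 in muscle, and in PBS replicates 1 and 3 it was 6.02 and 6.14 in kidney, 6.06 and 5.98 in liver and 7.01 and 6.97 in muscle. In each tissue the mean of the 8 genes was higher in PBS replicates 2 and 4 than in 1 and 3. In the muscle it was 1.45 and 0.87 against -0.92 and -1.18, relative to the mean of the tissue. The brightest probe stood for each gene, *rsad2* included. *rsad2*, at background on every array, split in the same way in each tissue (muscle -4.53 and -4.09 against -5.74 and -6.73). Not every gene did so in each tissue. *ifitm1* was higher in PBS muscle replicate 3 (3.84) than 4 (3.50) and in PBS kidney replicate 1 (2.05) than 2 (1.77). *mxa* A_15_P107751 was higher in PBS kidney replicate 1 (-2.69) than 2 (-3.14). Raw signal at the scaling percentile was higher in PBS kidney replicates 1 and 3 (2358 and 4814) than 2 and 4 (1060 and 1274). The order held in the liver but not in the muscle (486 and 732 against 544 and 379). The part of array-wide differences in this split was not tested. The oocyte markers were at 3.73 to 5.72 in LPS kidneys and 5.82 to 6.78 in LPS muscle, both within the ranges of the PBS arrays. In the liver they were at 1.96 to 3.01 after LPS and 3.09 to 6.06 after PBS, so that treatment and oocyte marker level did not overlap and cannot be told apart there.

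With the oocyte marker level as a covariate, an alternative chosen after these values had been seen, 5 of the 8 genes were counted in the kidney (*ifitm1*, *isg15*, *mxc*, *stat1a* and *stat1b*), beside 12.1% of all genes tested. Over all tissues 4 were counted (*ifitm1*, *isg15*, *mxc* and *stat1a*), beside 1.34% of all genes. In the liver and the muscle none was, beside 0% of all genes in each. The log2 fold change of *mxc* A_15_P132451 in the kidney was then 5.12 (adjusted p = 0.00156), that of *isg15* 2.03 (adjusted p = 0.0133) and that of *ifitm1* 2.40 (adjusted p = 0.0124). Over all alternatives the adjusted p ranged from 0.0133 to 0.909 for *isg15* and from 0.0124 to 0.875 for *ifitm1* in the kidney.

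**Figure D4:**
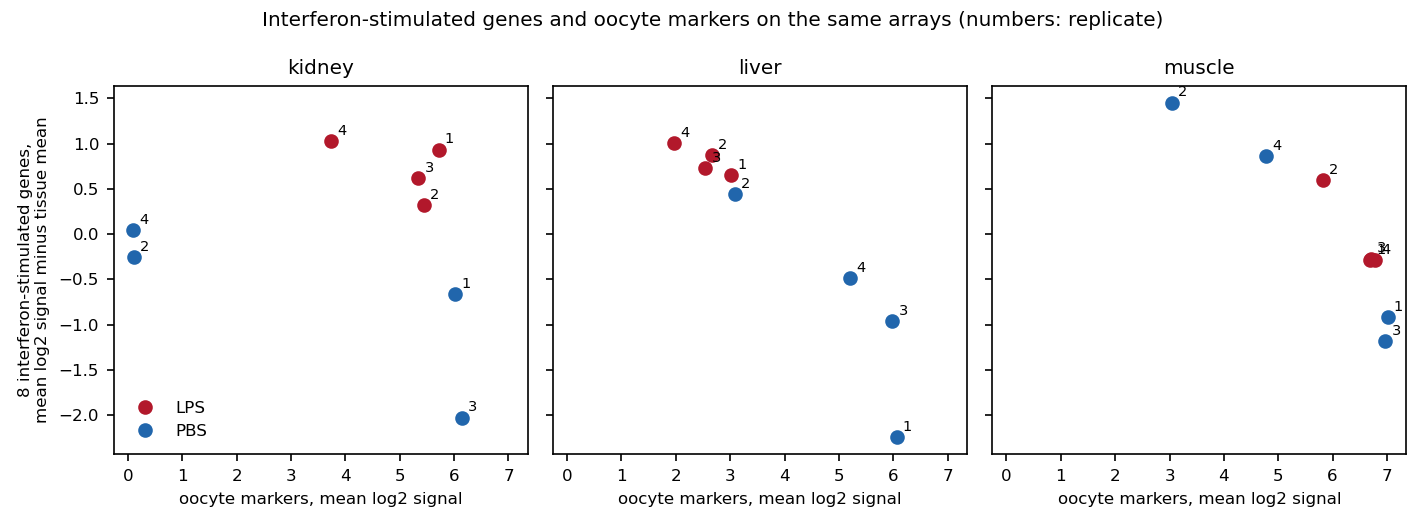
Mean log2 signal of the 8 interferon-stimulated genes minus the mean of the tissue (vertical axis) against the mean log2 signal of 3 oocyte markers (horizontal axis), for each array after LPS (red) and PBS (blue), numbered by replicate. PBS muscle replicates 2 and 4 (oocyte markers at 3.04 and 4.77) had the highest levels of the 8 genes in that tissue, and the LPS and PBS livers do not overlap in oocyte markers. The mean takes the brightest probe of each gene and includes *rsad2*, at background on every array.

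Leukocyte markers also differed between groups in places. Neutrophil markers (3 of 4 measured) were at 3.40 to 4.37 in LPS and 2.72 to 5.32 in PBS kidneys, at -1.30 to 2.51 in LPS and -3.14 to -1.27 in PBS livers, and at -3.31 to -0.47 in LPS and -3.49 to 0.40 in PBS muscle. Macrophage markers (3 of 4) were at 0.20 to 1.01 in LPS and -0.94 to 1.24 in PBS kidneys, at 0.32 to 1.06 in LPS and -1.61 to 0.35 in PBS livers, and at -2.67 to -0.62 in LPS and -1.95 to 0.97 in PBS muscle. Markers of T and NK cells (4 of 5) were at -2.68 to -1.39 in LPS and -3.23 to -0.72 in PBS kidneys, at -2.75 to -1.91 in LPS and -3.09 to -1.23 in PBS livers, and at -3.11 to -2.19 in LPS and -3.15 to -0.69 in PBS muscle. The 1 B cell marker measured of 4 was at -4.99 to -3.86 in LPS and -4.51 to -2.63 in PBS livers. Their part in the levels of the 8 genes was not tested.

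No difference in the LPS effect between tissues passed the threshold for any of the 8 genes in the interaction test of limma over the 6 groups. The share of all genes counted was 0% for kidney minus liver, 0% for kidney minus muscle and 0.00791% for liver minus muscle. Probes of the 8 genes with an unadjusted p under 0.05 numbered 0 of 12 for kidney minus liver, beside 8.04% of all probes, 5 of 12 for kidney minus muscle, beside 12.6%, and 5 of 12 for liver minus muscle, beside 13.2%. For *mxc* A_15_P630791 the LPS effect was larger by 3.08 in the kidney than in the muscle (SE 0.79, adjusted p = 0.285) and by 2.86 in the liver than in the muscle (SE 0.76, adjusted p = 0.320). For *ifitm1* these differences were 1.95 (SE 0.71, adjusted p = 0.285) and 2.33 (SE 0.71, adjusted p = 0.320). Without PBS kidney replicate 4, 1 gene, *mxc*, was counted.

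In the PBS arrays, *ifitm1* was the gene of the 8 whose measured level differed between tissues. It was highest in muscle (3.70 ± 0.70), followed by liver (2.39 ± 0.996) and kidney (1.58 ± 0.92; SD, n = 4 each). It was lower in kidney than in muscle by 2.12 on the log2 scale (kidney minus muscle -2.12, SE 0.50, adjusted p = 0.00611, with 17.2% of all genes counted), and neighbours in this order did not differ past the threshold (kidney minus liver -0.81, adjusted p = 0.269; liver minus muscle -1.30, adjusted p = 0.0905). Between kidney and liver, where 26.6% of all genes were counted, *rsad2* passed the threshold too, but in readings at background, which are not read as a difference.

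For the remaining 6 genes no pair of PBS tissues differed past the threshold. With normexp background correction the 2 genes counted were *ifitm1* and *mxb*, and *rsad2* was not counted. *mxb* was well above background on 2 of 4 PBS kidney, 0 of 4 PBS liver and 2 of 4 PBS muscle arrays. *stat1b* A_15_P552552 was at 0.91 ± 1.05 in PBS kidney, 0.55 ± 1.60 in PBS liver and -0.62 ± 1.26 in PBS muscle. *stat1a* followed the same order with 1.09 ± 1.17 in kidney, 0.63 ± 0.98 in liver and 0.54 ± 1.15 in muscle. Between liver and muscle, where 20.5% of all genes were counted, *mxa* A_15_P107751 came at -3.82 ± 1.40 in PBS liver and -2.13 ± 1.61 in PBS muscle (adjusted p = 0.104), and *isg15* at 0.82 ± 1.34 in PBS liver, 0.53 ± 1.97 in PBS muscle and 0.15 ± 0.76 in PBS kidney. Without PBS muscle replicate 2 the count of genes, *rsad2* included, was 4 (*ifitm1*, *mxc*, *rsad2* and *stat1b*). Without PBS muscle replicate 3 it was 4 (*ifitm1*, *mxa*, *mxb* and *rsad2*), and without PBS kidney replicate 1 it was 1 (*ifitm1*). Of these genes, *rsad2* was at background on every array, and *mxb* and the probes of *mxa* on every PBS liver array. The share of all genes counted in these fits is not given here, so that the counts cannot be set against it.

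The signals of the 8 genes correlated over the arrays. After the mean of each tissue had been removed, Pearson's r over the 24 arrays was between 0.43 and 0.93 for the 66 pairs of their probes. The lowest was that of A_15_P132451 with A_15_P656826, both of *mxc*, and the highest that of *stat1a* with *stat1b* A_15_P552552. *isg15* had an r of 0.92 with that probe of *stat1b*, 0.91 with *stat1a* and 0.90 with *mxa* A_15_P107751. *rsad2*, at background on every array, still had an r of 0.71 with *stat1a* and 0.70 with *mxa* A_15_P107751, so that readings at background also reached such values. The part of array-wide differences in the r values was not tested. The arrays share slides and treatments, and the r values describe the arrays only.

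Among 10757 other genes, the probes most like the mean of the 8 included those of *crfb1* (r = 0.973), *irf9* (0.961), *calcoco2* (0.957) and *il15ra* (0.955), over the same 24 arrays and with Spearman's rho between 0.923 and 0.939. *crfb1* is a class II cytokine receptor chain of type I interferon receptors in zebrafish, Irf9 is part of the complex that binds interferon-responsive promoters and Il15ra is the high-affinity receptor chain of interleukin-15. *irf9* had an LPS minus PBS difference of 1.90 (kidney), 2.08 (liver) and 0.20 (muscle). For *calcoco2* it was 1.55, 1.97 and 0.05 in the same tissues.

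Of 87 further genes of the interferon pathway listed, 50 had a probe that could be named through a RefSeq accession. The others are not described here, and the array may hold probes for them without such a name. Among them are *mxf*, *cxcl11.1* and *socs1b*, which the paper lists among the genes most changed by LPS on these arrays. Over all tissues 5 of the 50 were higher after LPS and none lower: *ifng1*, *irf1b*, *socs1a*, *socs3a* and *socs3b*, beside 0.443% of all genes. In the liver 5 were higher, beside 0.552% of all genes, and none lower: *ifng1*, *irf1b*, *irf8*, *socs1a* and *socs3b*. In the kidney and the muscle none was counted by limma, and 16 genes with an unadjusted p below 0.05 were higher and 2 lower in the kidney (beside 4.53% and 5.11% of all genes) and 4 higher and 1 lower in the muscle (beside 1.32% and 2.63%). Over the list, the median log2 fold change was 0.70 (kidney), 1.01 (liver) and -0.12 (muscle), beside 0.02, 0.05 and -0.14 over all probes tested in the same tissues.

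Among the ligands, *ifng1*, which encodes interferon gamma, was at -1.95 to -0.89 in LPS livers (3 arrays, with an outlier spot left out), against -5.08 to -4.11 in PBS livers, where it was not well above background on any array. It was at least 2.83-fold higher in LPS livers (adjusted p = 0.0191). In the kidney it was at -0.71 to 0.65 after LPS and -5.28 to -2.26 after PBS, with a log2 fold change of 3.57 (SE 0.64, adjusted p = 0.184). The type I interferon gene *ifnphi1* was at 0.49 to 1.28 in LPS livers and -2.04 to -0.41 in PBS livers (log2 fold change 2.05, SE 0.43, adjusted p = 0.0775), and at 0.38 to 1.26 in LPS kidneys and -1.14 to 0.52 in PBS kidneys (0.90, SE 0.42, adjusted p = 0.556). The groups were separated in the liver and overlapped in the kidney. *ifnphi2* and *ifnphi3* were not well above background on any liver or muscle array.

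Of the receptor chains and kinases none was counted. *ifngr1*, a receptor chain for interferon gamma, had a log2 fold change of 2.29 in the kidney (SE 0.68, adjusted p = 0.556) and 1.63 in the liver (SE 0.61, adjusted p = 0.234). The kinase gene *jak1* had 0.89 in the kidney (adjusted p = 0.581) and 1.94 in the liver (adjusted p = 0.0934). For genes of RNA and DNA sensing the largest values were -0.47 for *tlr3* in the kidney (adjusted p = 0.845) and 1.15 for *tbk1* in the liver (adjusted p = 0.531).

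The transcription factor *irf1b*, a homolog of mammalian IRF1, had the largest difference of the list in the kidney. It was at 6.13 to 7.46 in LPS kidneys and 1.02 to 3.72 in PBS kidneys (log2 fold change 4.20, SE 0.59, adjusted p = 0.0702). In the muscle, where the 8 genes overlapped, *irf1b* was at 3.19 to 4.26 after LPS and -0.30 to 1.98 after PBS, without overlap (log2 fold change 3.06, SE 0.53, adjusted p = 0.722). In the liver its second probe A_15_P659711 passed the threshold (4.01, SE 0.64, adjusted p = 0.0275), as did *irf8*, a factor of myeloid cells (3.95, SE 0.55, adjusted p = 0.0166). Every probe of *socs3b* was also without overlap in the muscle (A_15_P116605 1.34). The largest muscle values of the other roles were 1.88 for *ifng1*, 0.25 for *jak1*, -0.61 for *mavs*, -0.95 for *ifngr1l*, -0.71 for *ifnphi2* and -1.57 for *ifit8*. Their limma adjusted p was 0.916 to 0.941. *ifng1* was at background in PBS muscle, and *ifnphi2* and *ifit8* in all muscle arrays.

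The inhibitors *socs1a*, *socs3a* and *socs3b* encode suppressors of JAK and STAT signalling. *socs1a* was at 4.05 to 5.35 in LPS livers and 1.59 to 2.44 in PBS livers (log2 fold change 2.59, SE 0.42, adjusted p = 0.0291). 3 probes of *socs3b* passed the threshold in the liver, among them A_15_P131021 (3.40, SE 0.56, adjusted p = 0.0326). *socs3a* had 2.37 over all tissues (SE 0.42, adjusted p = 0.00509) and 2.87 in the kidney (adjusted p = 0.184). Of the 22 other interferon-stimulated genes of the list that had a named probe, none was counted in any LPS comparison. Among these 22 the largest values were 1.55 for *pkz*, a kinase related to PKR, in the kidney (adjusted p = 0.556) and 2.55 for *mxe* in the liver (adjusted p = 0.0934). The count leaves out *mxf* and *cxcl11.1*, which had no named probe. The paper lists both as significantly higher after LPS over all tissues and in the kidney, and *cxcl11.1* also in the liver.

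In the PBS arrays, 8 genes of the pathway list were counted between kidney and liver, 10 between kidney and muscle and 6 between liver and muscle, beside 26.6%, 17.2% and 20.5% of all genes in these comparisons. *mxg*, a further *mx* gene, was at 0.30 to 2.76 in PBS liver, where all 4 arrays were well above background, and at -6.58 to -4.39 in PBS muscle, where none was. It was at least 65.5-fold higher in PBS liver than in PBS muscle (adjusted p = 7.22e-08). In PBS kidney it was at -5.39 to -3.33, with 2 of 4 arrays well above background (adjusted p = 4.97e-07 for kidney minus liver).

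Of the genes well above background on all arrays of both tissues, *irf8* was higher in kidney than in liver by 2.47 (adjusted p = 0.0106) and than in muscle by 2.60 (adjusted p = 0.00607), and *irf1b* was higher in liver than in muscle by 2.95 (adjusted p = 0.00207) and also higher in kidney than in muscle. *mavs* was higher in kidney and in liver than in muscle, *jak2b* in kidney than in muscle, and *ifnphi1* was lower in liver than in muscle. *samhd1* A_15_P632611 and *tbk1* A_15_P192901 were higher in kidney than in liver and lower in liver than in muscle, and *socs3b* A_15_P131021 and *jak2a* A_15_P631971 were higher in kidney than in muscle. The other calls rested on probes that were not well above background on some or all arrays of 1 or both tissues, among them those of *ifng1r*, *ifngr1l* and *gbp4*, and *gbp4* was below this limit on all PBS kidney and PBS liver arrays.

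**Figure D5:**
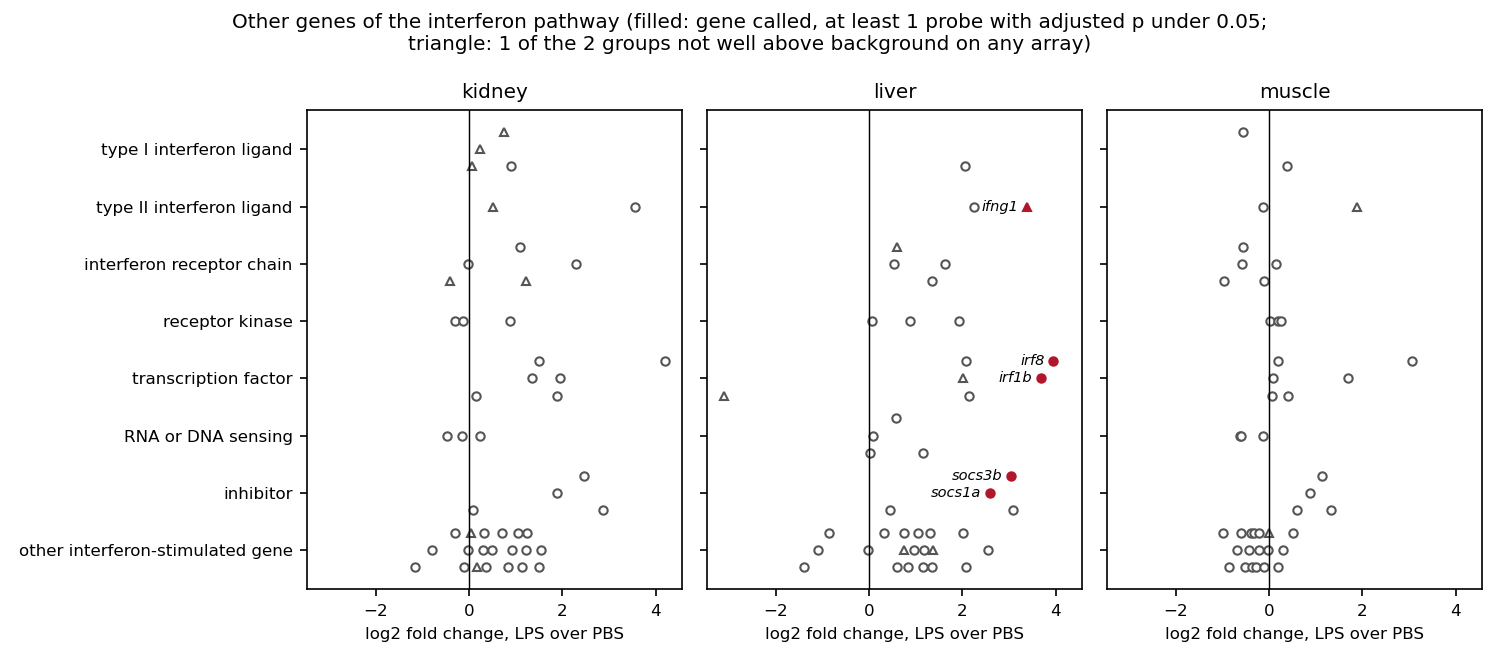
Log2 fold change of LPS over PBS (horizontal axis) for the brightest probe of each other interferon pathway gene, by role (rows) and tissue; filled points are genes counted, and triangles have a group not well above background on any array, so that their value is no bound. The counted genes are *ifng1*, *irf1b*, *irf8*, *socs1a* and *socs3b*, all in the liver, and genes with both groups below background (5 of the liver, 5 of the muscle and none of the kidney) are left out.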

How the data were processed

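RNA was hybridized to one-colour Agilent arrays. The authors deposited, per the file headers, an intensity for each spot that Feature Extraction had corrected for background and spatial trend, and a table of log2 values after a shift at the 75th percentile. The versions named differ, 10.7.3.1 in the file headers and 10.4.0.0 in the labels. Here the 75th percentile over all spots of an array was subtracted from its log2 signals, spots with a feature outlier mark were then removed, and replicate spots were averaged. For 35715 probes, 100% of centred values lay within 0.01 of the deposited log2 table, whose column medians were -0.636 to 0.498. A probe entered a comparison where 1 or more arrays lay between the 20th and 95th percentile of raw signal. Names came from RefSeq accessions in a gene table (25069 probes named). Tests used limma 3.58.1 in R 4.3.3 with Benjamini-Hochberg adjustment over all probes and a threshold of 0.05, and the script was tested on simulated data. The number of arrays limits the precision.

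The 8 genes and all lists were chosen with earlier results of these data known. All probes of the 8 genes are named. Of the pathway list, genes are named that passed the threshold or that had the largest change of their role in a tissue, and the 5 further genes most like the mean of the 8, of which 1 is not reported here; a gene is represented by its brightest probe. Outside this rule, *irf8*, *irf9* and *socs3a* are described in tissues where they were not selected. Each treatment was compared within tissues (8 arrays), over all 24 arrays with no tissue term, as the methods name none, and as an interaction over 6 groups. Alternatives were other scalings, filters, backgrounds and thresholds, the deposited table, averaged probes, blocks for slide, for replicate number and for replicate number within treatment, and each array left out. Blocks for the scan day, other handling of outlier spots and the oocyte markers as a covariate were added after seeing the data. Replicate numbers were checked as a pairing. Deviations of same-numbered kidney arrays correlated (r = 0.428, 0.391, 0.272 and 0.639). Some kidney arrays with different numbers did so as well, such as LPS replicate 1 with PBS replicate 3 (r = 0.453) and LPS replicate 4 with PBS replicate 2 (r = 0.298). The check thus did not single out the numbers as pairs. Same-numbered arrays of liver and muscle did not correlate throughout. The median signal replaced the mean signal in the normexp alternative (offset 50).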

Additional observations from a re-analysis of the deposited data

Results flagged for a closer look

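In 4 of the 69 sets of 4 arrays for which a probe of the 8 genes had a value on each, 1 array stood far from the other three by Dixon's test at the 95% level, which chance gives in about 1 of 20 such sets. The signal of *stat1b* A_15_P552552 was 3.03 in LPS kidney replicate 4, with the others between 2.38 and 2.49. That of *mxa* A_15_P160626 was -1.37 in LPS liver replicate 1, with the others between -3.63 and -3.57, and this probe was not well above background on any liver array. In LPS muscle, *mxa* A_15_P107751 was -2.87 in replicate 4, with the others between -2.38 and -2.33, and *mxc* A_15_P656826 was 5.99 in replicate 2, with the others between 4.62 and 4.79. No interaction between tissue and LPS passed the threshold for these genes, as the report states.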

How the results depend on the processing

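Over all tissues, where 1 gene of the 8 was counted, the slide as a block gave 0, a tissue term 2, the oocyte covariate 4, and leaving out single arrays 1 to 2. In the kidney (1), normexp, an adjusted p under 0.01, averaged probes, the slide block, the replicate block and the scan day block each gave 0, the oocyte covariate 5, and leaving out single arrays 0 to 1. In the liver (1), the shift at the 50th percentile and the fit of 24 arrays in 6 groups gave 2, averaged probes, the slide block, the replicate block and the oocyte covariate 0, and leaving out single arrays 0 to 6. In the muscle the count was 0 under every alternative run. For LPS effects between tissues it was 0, with 0 to 1 when single arrays were left out. For PBS levels (2, of which *rsad2* was at background) it was 4 at the 50th percentile, 1 at an adjusted p under 0.01, 5 with treatment and replicate number as a random replicate block and 1 to 4 without single arrays, while a slide block could not be fitted, since slides lie within tissues. Same-numbered arrays are not known to be pairs in any tissue. In the liver and muscle the replicate block gave 0, with an adjusted p of 0.0653 for *mxc* A_15_P630791 in the liver. Of the alternatives, only the oocyte covariate has the share of all genes given beside it. The other counts cannot be set against such a share.

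Single log2 fold changes changed sign as follows, and the cause was not tested; values of *rsad2* compare readings at background. With the slide as a block over all tissues, *mxa* A_15_P107751 gave -0.081, *rsad2* -0.28 and *mxc* A_15_P656826 -0.37, and in the muscle *isg15* gave -0.43 and *stat1b* A_15_P552552 -0.16. In the muscle, normexp gave -0.033 for *isg15* and -0.10 for *stat1b* A_15_P201936, the replicate block -0.10 for *stat1a*, and leaving out background outlier spots -0.48 for *stat1b* A_15_P552552. With the oocyte covariate the liver gave -0.86 for *mxa* A_15_P107751, -0.66 for *rsad2*, -0.17 for *mxb*, -0.74 for *stat1b* A_15_P201936, -0.64 for *stat1b* A_15_P552552 and -0.49 for *mxc* A_15_P656826, and the muscle 0.45 for *mxa* A_15_P107751, 0.058 for *mxa* A_15_P160626, 0.18 for *rsad2* and 0.99 for *mxb*. Without single arrays the muscle values ranged from -0.13 to 0.42 for *ifitm1*, -0.42 to 0.98 for *isg15*, -0.89 to 0.16 for *mxa* A_15_P107751, -1.31 to 0.60 for *mxb*, -0.86 to 0.016 for *rsad2*, -0.11 to 0.61 for *stat1a* and -0.15 to 0.64 for *stat1b* A_15_P552552, and the liver value of *rsad2* from -0.12 to 0.49. The log2 fold changes of *mxc* A_15_P132451 and A_15_P630791 were positive in the 3 tissues under every alternative listed here. Signals at background limit *rsad2*, *mxb* and *mxa* in the liver.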
